A study of Rattus norvegicus with 24 samples.

Results

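The cytotoxic granule genes were the 7 genes of the array named Gzma, Gzmb, Gzmc, Gzmk, Gzmm, Prf1 and Nkg7, taken by exact match of the gene name among 25885 distinct gene names. They were followed in the blood of Sprague-Dawley rats in 6 groups of 4 rats. The C groups received saline and the LPS groups received 10 mg/kg of E. coli lipopolysaccharide (LPS, a cell wall component of Gram-negative bacteria), both into the tail vein and both on more than 1 occasion. The rats were males that were 8 weeks of age at the outset. A semi-synthetic control diet was fed for 6 weeks to C-G0 and LPS-G0. C-G1 and LPS-G1 ate it with added beta-glucan from oats of high molecular weight, and C-G2 and LPS-G2 with beta-glucan of low molecular weight. The agent was systemic and the blood was taken at the end of the feeding period, so that whole blood RNA at that 1 time was measured. All 7 genes passed the filter on dim probes, with 8 of their 10 probes.

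Killing lymphocytes, natural killer (NK) cells and cytotoxic T cells, store granzymes and perforin in granules and release them toward a target cell. Perforin, the product of Prf1, forms pores through which granzymes, a family of serine proteases, enter the target and cut proteins that keep it alive. Gzma and Gzmk encode granzymes that cut after basic residues, Gzmb encodes one that cuts after aspartate and activates caspases, Gzmm encodes one that prefers methionine and leucine, and Gzmc encodes a relative of granzyme B. Nkg7 encodes a membrane protein of the granule. In blood these transcripts come mainly from NK cells and cytotoxic T cells.

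The level of a gene is given as the log2 ratio of rat RNA (Cy3) to the common reference RNA (Cy5) on the same array, as the labels assign the dyes, so that 0 is the level of the reference and 1 is a doubling. The study's methods assign the dyes the other way round, which would turn every sign. For the 7074 probes that every array measured above background in both dyes, the median log2 SD within groups was 0.353 for Cy3 against 0.199 for Cy5, and 95.3% of them varied more in Cy3. Arrays correlated at a median r of 0.970 in Cy3 and of 0.987 in Cy5, so that Cy5 was the channel that varied less from array to array. LPS-G0 replicates 3 and 4 carry an LPS title and the word control in another label, and results are also given without them. Between 7786 and 15385 probes of an array were well above background in Cy3. Of the erythroid and platelet genes listed as checks of blood, 8 of 8 and 8 of 8 passed the filter. Fewer cells of a type and less RNA per cell cannot be told apart in whole blood.

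Gzma and Gzmk lie together on chromosome 2 and Gzmb and Gzmc on chromosome 15, and the lead probes (the brightest probe of each gene) are placed by the array's design on build rn4. Gzma was read at chr2:44490165-44490224 and Gzmk at chr2:44589378-44589437, and Gzmb at chr15:35195450-35195509 and Gzmc at chr15:35173371-35173419, all on the minus strand. Gzmm was read at chr7:11526548-11526607 on the minus strand, Prf1 at chr20:28663319-28663378 and Nkg7 at chr1:93813978-93814037, both on the plus strand. Exons and introns at these positions were not analysed here. Because the genes varied together from array to array, the 250 bases before each RefSeq transcription start (build GRCr8) were searched for 9 short motifs on both strands. Those of Gzmk, Gzmb and Prf1 are shown, as the granzyme with the smallest p in the comparison of LPS-G0 with C-G0, a granzyme with 3 matches and the pore former. They are written in the direction of the gene, and capitals mark ACCACA, the core motif of RUNX factors, or its reverse complement TGTGGT.
Gzmk, chr2:46582016-46582265, minus strand: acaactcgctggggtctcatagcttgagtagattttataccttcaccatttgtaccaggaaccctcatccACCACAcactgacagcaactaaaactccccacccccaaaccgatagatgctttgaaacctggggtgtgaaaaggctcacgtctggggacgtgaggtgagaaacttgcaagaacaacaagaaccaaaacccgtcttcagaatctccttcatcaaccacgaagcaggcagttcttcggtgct
Gzmb, chr15:34462470-34462719, minus strand: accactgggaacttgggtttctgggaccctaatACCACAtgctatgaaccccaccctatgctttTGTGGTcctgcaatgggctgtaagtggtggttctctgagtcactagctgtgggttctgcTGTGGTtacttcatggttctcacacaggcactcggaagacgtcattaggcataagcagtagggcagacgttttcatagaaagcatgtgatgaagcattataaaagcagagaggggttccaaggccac
Prf1, chr20:29788790-29789039, plus strand: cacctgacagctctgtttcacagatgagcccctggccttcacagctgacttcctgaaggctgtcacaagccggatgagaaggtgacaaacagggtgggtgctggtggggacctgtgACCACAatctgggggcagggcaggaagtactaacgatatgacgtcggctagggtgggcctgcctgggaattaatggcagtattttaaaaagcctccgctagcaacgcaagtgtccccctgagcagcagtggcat
The RUNX core stood in these windows of 7 of 7 genes, with 1 to 3 matches in each and 11 in all, and in 14.5% of 33469 RefSeq promoters of the same length. None of the 11 overlapped another motif searched. The T-box motif TCACACC stood before Gzmk and Gzmm (2 genes, 3.22% of all promoters). The cyclic AMP response core TGACGT stood before Gzmb and Prf1 (2 genes, 6.95%). The ETS core GGAAG stood before 6 of the genes, all but Gzmk, and in 63.3% of all promoters. The remaining counts were 1 for AP-1 (TGAGTCA, 4.05% of promoters), 2 for the TATA box (TATAAA, 12.9%), 1 for the E-box (CACGTG, 5.59%), 1 for the NFAT core (GGAAAA, 21.6%) and 2 for STAT (TTCNNNGAA, 7.67%). A match is a stretch of letters, and binding was not measured.

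In rats on the control diet, LPS-G0 stood above C-G0 in mean for all 7 genes, by 0.79 to 1.35 on the log2 scale, but no gene passed the test corrected over all probes. Gzma and Gzmk stood 1.24 and 1.10 higher. Gzmb and Gzmc stood 1.35 and 1.30 higher, and both were dim on 2 of the 4 C-G0 arrays. With another background correction (normexp, then loess) no gene reached 2-fold, and Gzmb (0.68) and Gzmc (0.64) had the smallest differences of the 7. On the G1 diet the same comparison gave smaller differences, and on the G2 diet the differences lay on both sides of 0. Without LPS, both beta-glucan groups stood above C-G0 for all 7 genes. C-G0 had the lowest and LPS-G0 the highest group mean of each gene.

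Gzmk, a tryptase-like granzyme, had log2 ratios of -1.31, -0.10, -0.32 and -0.39 in the 4 C-G0 rats. In the 4 LPS-G0 rats it had 0.85, 0.69, 0.20 and 0.54. The groups did not overlap, and the C-G0 value farthest from the rest was that of replicate 1. The difference was 1.10 ± 0.25 (SE; 2.14-fold; limma, unadjusted p = 0.000222, adjusted p = 0.414), with an exact two-sided permutation p of 0.0286, the smallest that 4 arrays against 4 allow.

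Gzma, the tryptase granzyme that is the neighbour of Gzmk, read -1.72, -0.027, -0.42 and -0.67 in C-G0. It read 0.82, 0.47, 0.15 and 0.68 in LPS-G0. These groups did not overlap either, although C-G0 replicate 2 stood near the level of the reference. The difference was 1.24 ± 0.35 (SE; 2.36-fold; limma, adjusted p = 0.414; exact permutation p = 0.0286).

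Gzmc read -1.30, -0.072, -1.33 and -0.37 in C-G0. It read 0.63, 0.61, 0.10 and 0.81 in LPS-G0. Every LPS-G0 rat was above every C-G0 rat, and the probe was well above background on only 2 of the 4 C-G0 arrays and on all 20 others. The difference was 1.30 ± 0.37 (SE; limma, adjusted p = 0.414; exact permutation p = 0.0286). With normexp and loess it was 0.64 ± 0.24 (SE; 1.56-fold; limma, adjusted p = 0.249), so that its size depends on how background was treated.

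Gzmb, the caspase-activating granzyme, read -2.58, -0.015, -1.35 and -0.34 in C-G0. It read 0.58, 0.13, -0.40 and 0.82 in LPS-G0. The groups overlapped, since LPS-G0 replicate 3 lay below C-G0 replicates 2 and 4, and C-G0 replicates 1 and 3 were not well above background. The difference was 1.35 ± 0.47 (SE; limma, adjusted p = 0.414; exact permutation p = 0.0857). With normexp and loess it was 0.68 ± 0.27 (SE; 1.60-fold; limma, adjusted p = 0.27). Its other tested probe went the same way with a difference of 1.05 ± 0.35 (SE; limma, adjusted p = 0.414), and was dim on the same 2 arrays. That probe, at chr15:35196479-35196538, shares 28 bases in a row with the probe of LOC102553861, a granzyme-related gene of the same cluster, so that the transcripts may be read by each other's probes. The stretches are shown with the shared bases in capitals, and 55 of the 59 aligned bases of the probes were identical.
Gzmb: ggGACCCAAAGATCAAACGTGCTTCCTTTC
LOC102553861: gaGACCCAAAGATCAAACGTGCTTCCTTTC
LOC102553861 itself had a log2 difference of 1.61 ± 0.41 between LPS-G0 and C-G0 (SE; limma, adjusted p = 0.414; exact permutation p = 0.0571), and it was dim on 2 of the 4 C-G0 arrays.

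Gzmm, the methionine-preferring granzyme, read -1.29, -0.091, -0.16 and -0.46 in C-G0. It read 0.55, 0.58, -0.0037 and 0.14 in LPS-G0. The groups did not overlap, with a gap between LPS-G0 replicate 3 and C-G0 replicate 2. The difference was 0.82 ± 0.22 (SE; 1.76-fold; limma, adjusted p = 0.414; exact permutation p = 0.0286).

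Prf1, which encodes perforin, read -1.53, 0.31, -0.40 and -0.32 in C-G0. It read 0.68, 0.51, -0.42 and 0.46 in LPS-G0. The groups overlapped on both sides, with LPS-G0 replicate 3 under 3 of the C-G0 rats. The difference was 0.79 ± 0.31 (SE; 1.73-fold; limma, adjusted p = 0.421; exact permutation p = 0.114), and it had the largest unadjusted p of the 7 genes (0.0178).

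Nkg7, the granule membrane protein gene, read -1.56, -0.14, -0.61 and -0.53 in C-G0. It read 0.46, 0.28, -0.25 and 0.15 in LPS-G0. Only LPS-G0 replicate 3 reached down into the C-G0 range. The difference was 0.87 ± 0.25 (SE; 1.83-fold; limma, adjusted p = 0.414; exact permutation p = 0.0571).

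**Figure D1:**
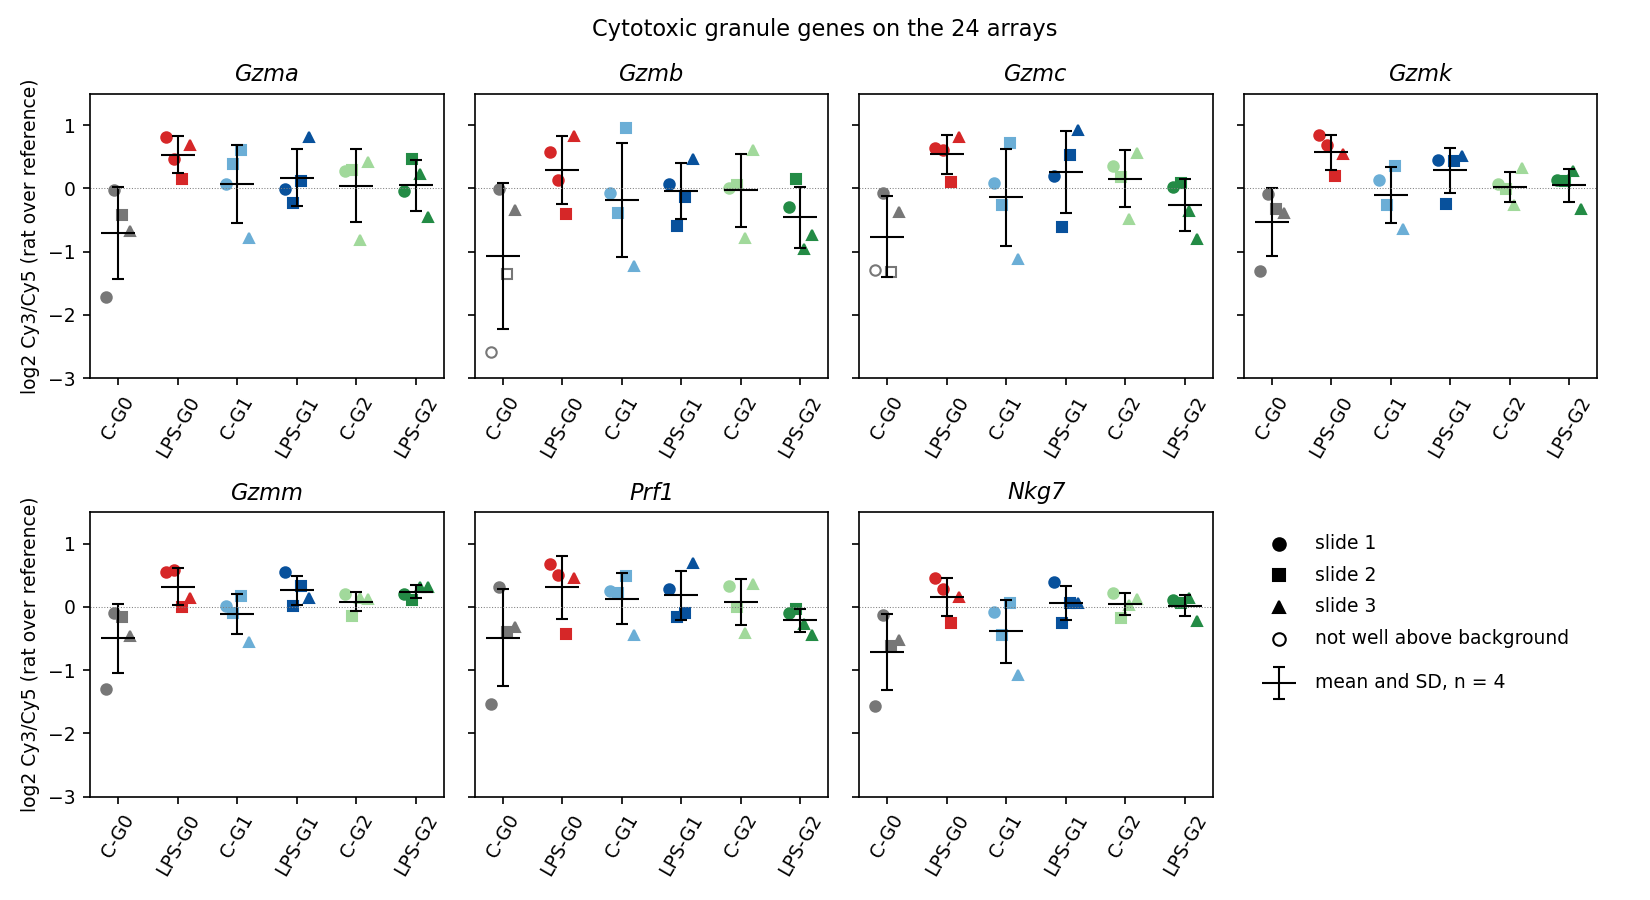
Log2 Cy3/Cy5 ratio (vertical axis) of the lead probe of each gene on the 24 arrays by group (horizontal axis), with symbols for the 3 slides, open symbols for signals not well above background, and the mean and SD of 4 arrays. C-G0 has the lowest and LPS-G0 the highest mean in each of the 7 panels, and the C-G0 points spread widely, from -2.58 to -0.015 for Gzmb.

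Counted over the genes, 0 of 7 were called in LPS-G0 against C-G0 (adjusted p under 0.05 and at least 2-fold), as were 0% of the 10708 probes tested. All 7 had an unadjusted limma p under 0.05 in the higher direction, against 6.81% of all probes, and 4 of 7 had groups that did not overlap with LPS-G0 higher, against 3.69%. The median difference was 1.10 on the log2 scale beside 0.0228 over all probes. Each slide held all 6 groups, with only 1 or 2 arrays of each, so that differences within a slide rest on few rats. On slides 1, 2 and 3 the median difference was 1.30, 0.52 and 0.93. Without LPS-G0 replicates 3 and 4, which another label calls control, the median difference was 1.30 (limma, adjusted p = 0.75 for each gene). Their means over the genes were -0.088 and 0.52, beside 0.65 and 0.47 in replicates 1 and 2. Replicate 3 was the only LPS-G0 array within the C-G0 range for Gzmb, Prf1 and Nkg7.

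One C-G0 rat weighed on these values. C-G0 replicate 1 was the lowest of all 24 arrays for 6 of the 7 genes, with a mean over the genes of -1.61, and C-G0 replicate 3 was the lowest for Gzmc. The other C-G0 arrays had means over the genes of -0.018, -0.65 and -0.44. Without replicate 1, the median difference between LPS-G0 and C-G0 was 0.84, and 5 of 7 genes, all but Prf1 and Gzmb, had an unadjusted p under 0.05. The number of probes well above background on that array, 10439, was within the range of the other arrays. Across the 24 arrays, the mean over the genes had an r of 0.058 and a rho of 0.085 with that number, given as a description.

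In rats on the G1 diet, LPS-G1 stood above C-G1 in mean for 7 of 7 genes, by 0.053 for Prf1 to 0.45 for Nkg7. None was called (0.00934% of all probes were), and 0 of 7 had an unadjusted p under 0.05 against 1.99% of probes in that direction (limma, adjusted p from 0.950 to 0.990). For Nkg7, the C-G1 rats read -0.085, -0.44, 0.054 and -1.08 and the LPS-G1 rats 0.40, -0.26, 0.062 and 0.066. The groups overlapped for each gene. The median difference of 0.38 became 0.076 without C-G1 replicate 4, the lowest rat of its group for each gene, and then Gzma (-0.18), Prf1 (-0.14) and Gzmb (-0.21) turned negative. Within slides 1, 2 and 3 the median was 0.14, -0.27 and 1.16. Erythroid genes were higher in LPS-G1 for 8 of 8 (median 0.48, 0 with an unadjusted limma p under 0.05), and NK cell genes had a median of 0.0085.

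In rats on the G2 diet, 4 of the 7 genes had a lower mean in LPS-G2 than in C-G2, namely Gzmb, Gzmc, Prf1 and Nkg7. No gene and no probe was called (0%), and 0 of 7 genes had an unadjusted p under 0.05 against 0.504% of probes in the lower direction (limma, adjusted p = 1.00). Gzmc gave 0.35, 0.19, -0.49 and 0.56 in C-G2 and 0.021, 0.088, -0.36 and -0.80 in LPS-G2. Those groups overlapped, with a difference of -0.42 ± 0.37 (SE). The tightest gene was Gzmm, at 0.21, 0.12, 0.32 and 0.32 in LPS-G2 and 0.20, -0.14, 0.13 and 0.12 in C-G2. Its difference was 0.16 ± 0.22 (SE), and the median over the 7 genes was -0.029. By slide (1, 2 and 3), that median was -0.31, 0.12 and -0.12. The NK cell median was -0.023, with 1 of 9 genes lower at an unadjusted p under 0.05.

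Averaged over the 3 diets, LPS stood above saline for 7 of 7 genes, by 0.19 (Prf1) to 0.50 (Gzmk). None was called (0.0187% of probes were), and 4 genes, Gzma, Gzmk, Gzmm and Nkg7, had an unadjusted p under 0.05 against 7.47% of probes in the higher direction. The difference of Gzmk was 0.50 ± 0.14 (SE; limma, adjusted p = 0.516) with an exact permutation p of 0.00699 over the 343000 arrangements within diets. For Gzmm it was 0.45 ± 0.13 (SE; limma, adjusted p = 0.516; exact permutation p = 0.000297). The median difference within slides 1, 2 and 3 was 0.49, 0.18 and 0.68. Over all arrays it was 0.43. It became 0.34 without C-G0 replicate 1 and 0.35 without C-G1 replicate 4, each with 3 genes under an unadjusted p of 0.05. Without C-G0 replicate 2 it was 0.50, with 5 genes.

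Whether the LPS difference itself differed between diets was tested by the interaction, the LPS difference on that diet minus the one on the control diet. For the G2 diet the interaction was below 0 for 7 of 7 genes, from -0.65 (Gzmm) to -1.78 (Gzmb). No gene and no probe passed the corrected test with a 2-fold size (0% called; limma, adjusted p = 0.832 for each gene). All 7 genes had an unadjusted p under 0.05, from 0.00295 for Gzmc to 0.0441 for Gzmm, against 2.39% of probes in the lower direction. Gzmc had an interaction of -1.72 ± 0.52 (SE), from differences of 1.30 on the control diet and -0.42 on the G2 diet. With normexp and loess the interaction was -0.87 for Gzmc and -1.0 for Gzmb. The median of -1.08 moved to -0.82, with 3 genes under an unadjusted p of 0.05, without C-G0 replicate 1. On slides 1, 2 and 3 taken singly, it was -1.63, -0.39 and -1.12.

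For the G1 diet the interaction was likewise below 0 for 7 of 7 genes, with a median of -0.74. None of the genes or probes was called (0%; limma, adjusted p = 0.999), and 1 gene, Gzma, had an unadjusted p under 0.05 against 1.12% of probes. Gzma had an interaction of -1.14 ± 0.49 (SE). That of Gzmb, -1.22, was -0.56 with normexp and loess. Without C-G0 replicate 1 the median was -0.45 with 0 genes, and without C-G1 replicate 4 it was -0.93 with 5 genes. Within slides 1, 2 and 3 it was -1.18, -0.47 and 0.35, so that slide 3 had the other sign. Slide 3 held 1 array of each of the groups used here, among them C-G1 replicate 4. Both interactions use the same C-G0 and LPS-G0 arrays.

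**Figure D2:**
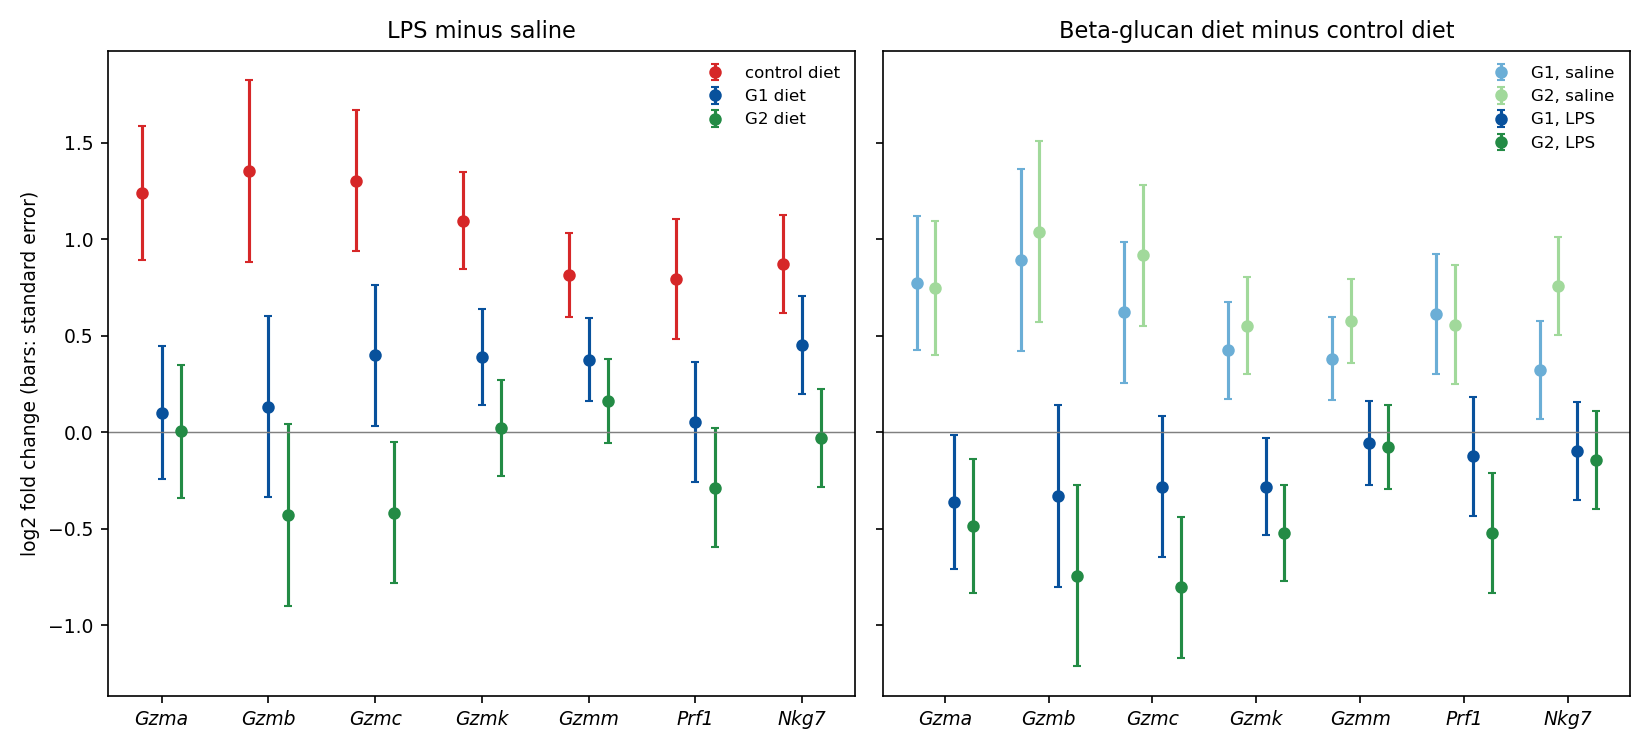
Log2 fold change (vertical axis, bars are the standard error of the fit) of each gene (horizontal axis) for LPS against saline on the 3 diets and for each beta-glucan diet against the control diet with saline or LPS. On the left the control-diet points run from 0.79 to 1.35, above those of the other diets for every gene, and on the right the saline points are above 0 and the LPS points below 0.

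In saline-injected rats, the G2 diet went with higher means than the control diet for 7 of 7 genes, by 0.55 (Gzmk) to 1.04 (Gzmb). No gene was called (0.0280% of probes were), and 6 of 7, all but Prf1, had an unadjusted p under 0.05 against 5.41% of probes in the higher direction. Nkg7 had the smallest p. Its C-G2 rats read 0.22, -0.18, 0.032 and 0.12, above 3 of the C-G0 rats and with replicate 2 under the highest of them. The difference was 0.76 ± 0.25 (SE; 1.69-fold; limma, adjusted p = 0.241; exact permutation p = 0.0571). Without C-G0 replicate 1 the median over the genes moved from 0.75 to 0.41, and only Nkg7 had an unadjusted p under 0.05. With normexp and loess, 3 genes had one, and the difference of Gzmc was 0.33 in place of 0.92. Of the NK cell genes 9 of 9 were higher in C-G2, with a median of 0.32, and 2 had an unadjusted p under 0.05, Fcgr3a (1.47) and Tyrobp (0.66), both also used by myeloid cells. Of 8 erythroid genes 1 was lower with such a p (7.84% of probes were), and the list's median was -0.37. Of 13 tested T cell genes 2 were lower with such a p, Cd3e (-0.73) and Cd8b (-0.59), and 0 higher (median -0.013). Of 6 tested transcription factors 2 were lower, Tbx21 (-0.64) and Ets1 (-0.97), and 0 higher (median -0.12). The part of these shifts in the granule values was not tested. Slide by slide (1, 2 and 3), the median was 1.04, 0.43 and 0.41.

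The G1 diet in saline-injected rats also went with higher means for 7 of 7 genes, by 0.32 (Nkg7) to 0.89 (Gzmb). No gene was called (0.0280% of probes were), and only Gzma had an unadjusted p under 0.05, which is 1 of 7 against 12.1% of probes in the higher direction. Gzma read 0.077, 0.39, 0.60 and -0.79 in C-G1. The first 3 rats lay above every C-G0 rat and replicate 4 lay below 3 of them, for a difference of 0.78 ± 0.35 (SE; limma, adjusted p = 0.160; exact permutation p = 0.171). The median difference of 0.61 was 0.26 without C-G0 replicate 1, with 0 genes under an unadjusted p of 0.05, and 0.81 without C-G1 replicate 4, with all 7. Without C-G0 replicate 2 it was 0.85, with 6 genes. Within slides 1, 2 and 3 it was 0.84, 0.75 and -0.25. Lists of other cells differed beside the granule genes. Of 8 erythroid genes, 5 were lower in C-G1 with an unadjusted p under 0.05, against 15.8% of probes lower, and the list's median was -1.05. Its mean log2 ratio ran from -1.56 to -0.19 in C-G1 and from -0.098 to 0.44 in C-G0, so that the groups did not overlap. The globin gene Hbb stood at 0.077. Basophil and mast cell genes were higher with such a p for 3 of 3 (median 0.60), and NK cell genes for 4 of 9 (median 0.56), led by Fcgr3a (1.45). The part of these shifts in the granule values was not tested.

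In LPS-injected rats both beta-glucan groups stood below LPS-G0 for 7 of 7 genes. For the G2 diet the differences ran from -0.076 (Gzmm) to -0.80 (Gzmc), none was called (0% of probes), and 2 of 7 genes, Gzmc and Gzmk, had an unadjusted p under 0.05 against 2.49% of probes. Gzmc was the 1 gene whose groups did not overlap, against 7.47% of probes with LPS-G2 wholly lower. Its LPS-G2 rats read 0.021, 0.088, -0.36 and -0.80, all under the lowest LPS-G0 rat at 0.10, and the difference was -0.80 ± 0.37 (SE; limma, adjusted p = 0.766; exact permutation p = 0.0286). By slide (1, 2 and 3), the median over the genes was -0.63, 0.30 and -0.80, and the count of 2 was 0 with slide as a term. Neutrophil genes were higher in LPS-G2 for 5 of 5, with a median of 0.65 and 3 under an unadjusted p of 0.05 (S100a8, Camp and Csf3r), against 2.79% of probes higher. Their mean ran from -0.20 to 0.74 in LPS-G2 and from -0.65 to -0.14 in LPS-G0. NK cell genes were lower for 8 of 9, with a median of -0.32, where Klre1 (-0.75) was lower and Tyrobp (0.56) higher with such a p. The part of these shifts was not tested.

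For the G1 diet the differences from LPS-G0 were smaller, from -0.056 (Gzmm) to -0.36 (Gzma). None was called (0.0280% of probes were), and 0 of 7 genes had an unadjusted p under 0.05 against 15.7% of probes in the lower direction (limma, adjusted p from 0.474 to 0.882). Gzma read -0.016, -0.23, 0.11 and 0.81 in LPS-G1, overlapping the LPS-G0 range through replicate 4. The median of -0.28 became -0.013 without LPS-G1 replicate 2. On slides 1, 2 and 3 taken singly, it was -0.31, 0.036 and 0.0031. Erythroid genes had a median of -0.42, and 2 of 8, Epb42 (-0.93) and Klf1 (-0.81), were lower with an unadjusted p under 0.05. NK cell genes had a median of -0.058, and 1 of 9, Klrk1 (-0.48), was lower with such a p. The part of these shifts was not tested.

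Set in order by group mean, the genes shared both ends and differed in the middle. Above C-G0 came LPS-G2 for Gzmb, Gzmc and Prf1, C-G1 for Gzmk, Gzmm and Nkg7, and C-G2 for Gzma. Gzmm had LPS-G2 (0.24 ± 0.098, SD, n = 4) close to LPS-G1 (0.26 ± 0.23), while Prf1 had LPS-G2 at -0.21 ± 0.19 and LPS-G1 at 0.18 ± 0.39. Of the 35 pairs of groups next to each other in these orders, 0 differed with an exact permutation p under 0.05. The lowest of these p was 0.143 (0.968 after Benjamini-Hochberg over the 35). Neighbours were set by sorting these same values, which keeps their gaps small. The count therefore cannot show that the groups were alike. Group membership held 30.4% (Prf1) to 53.0% (Gzmk) of the variance between arrays. Averaged over the 7 genes, the group means were -0.68 ± 0.67 in C-G0, 0.39 ± 0.33 in LPS-G0, -0.10 ± 0.55 in C-G1, 0.17 ± 0.34 in LPS-G1, 0.055 ± 0.32 in C-G2 and -0.083 ± 0.22 in LPS-G2 (SD, n = 4).

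The 7 genes varied together from rat to rat. Across the 24 arrays, Pearson's r of the 21 pairs ran from 0.630 (Gzmc with Gzmm) to 0.938 (Gzmm with Nkg7), with a median of 0.84, and Spearman's rho from 0.444 to 0.913, with a median of 0.78. The largest permutation p was 0.00139 for r and 0.0315 for rho, in both cases for Gzmb with Gzmm, and these were also the largest values after Benjamini-Hochberg over the 21 pairs. Gzmb with Gzmc gave an r of 0.909 and Gzmb with Prf1 one of 0.913. With the 2 arrays farthest from the median of the first gene left out, which included C-G0 replicate 1, the median r was 0.728 and the lowest 0.359 (Gzmb with Gzmm). With group means subtracted the median was 0.814, and within slides 1, 2 and 3 it was 0.963, 0.757 and 0.795. The values of a pair come from the same arrays and share their RNA and labelling.

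**Figure D3:**
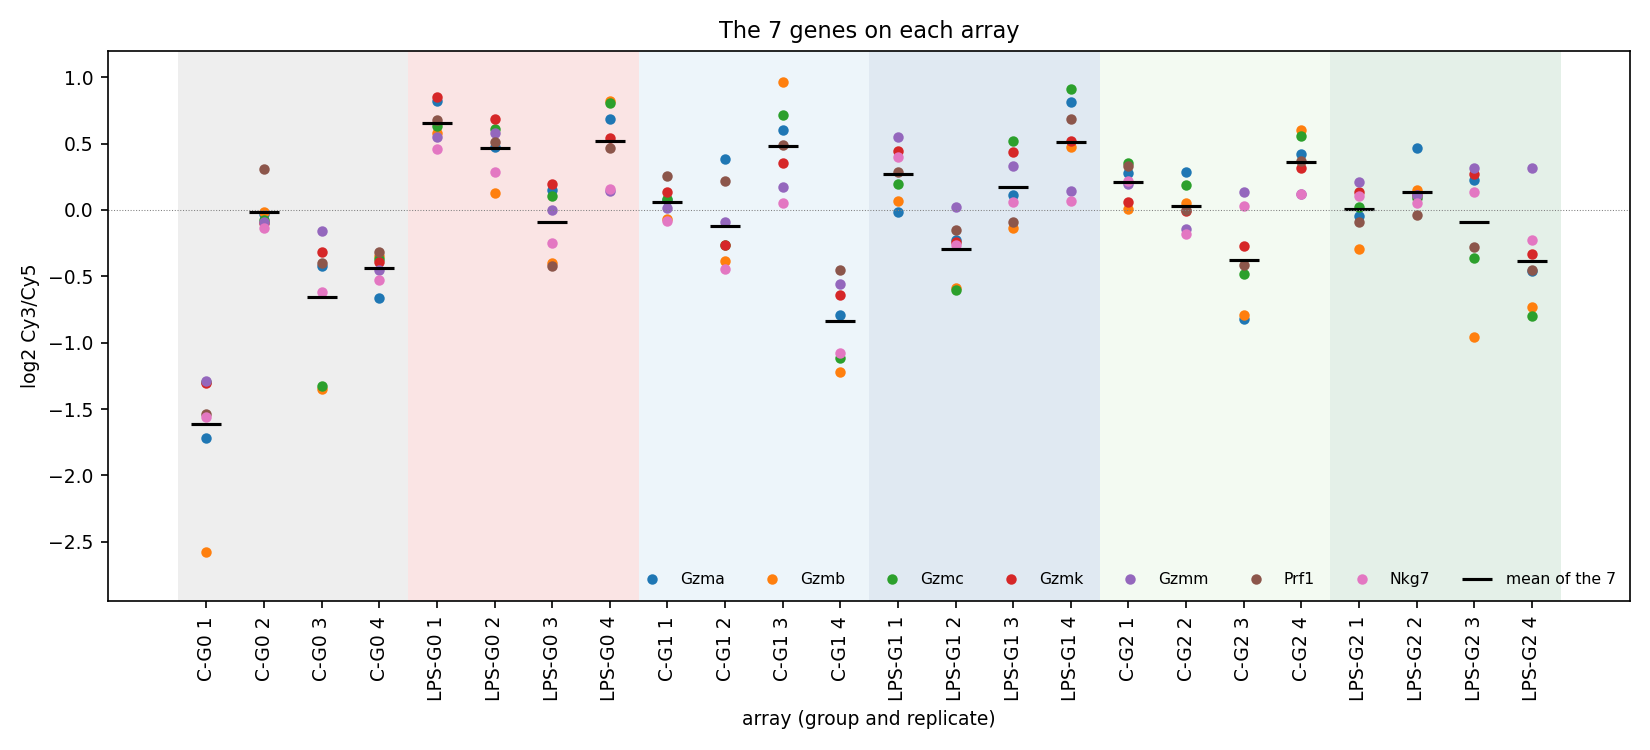
Log2 Cy3/Cy5 ratio (vertical axis) of the 7 genes and their mean on each of the 24 arrays (horizontal axis, shaded by group). On C-G0 replicate 1 all 7 genes lie at or below -1.29, and on LPS-G0 replicate 1 all lie at or above 0.46.

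**Figure D4:**
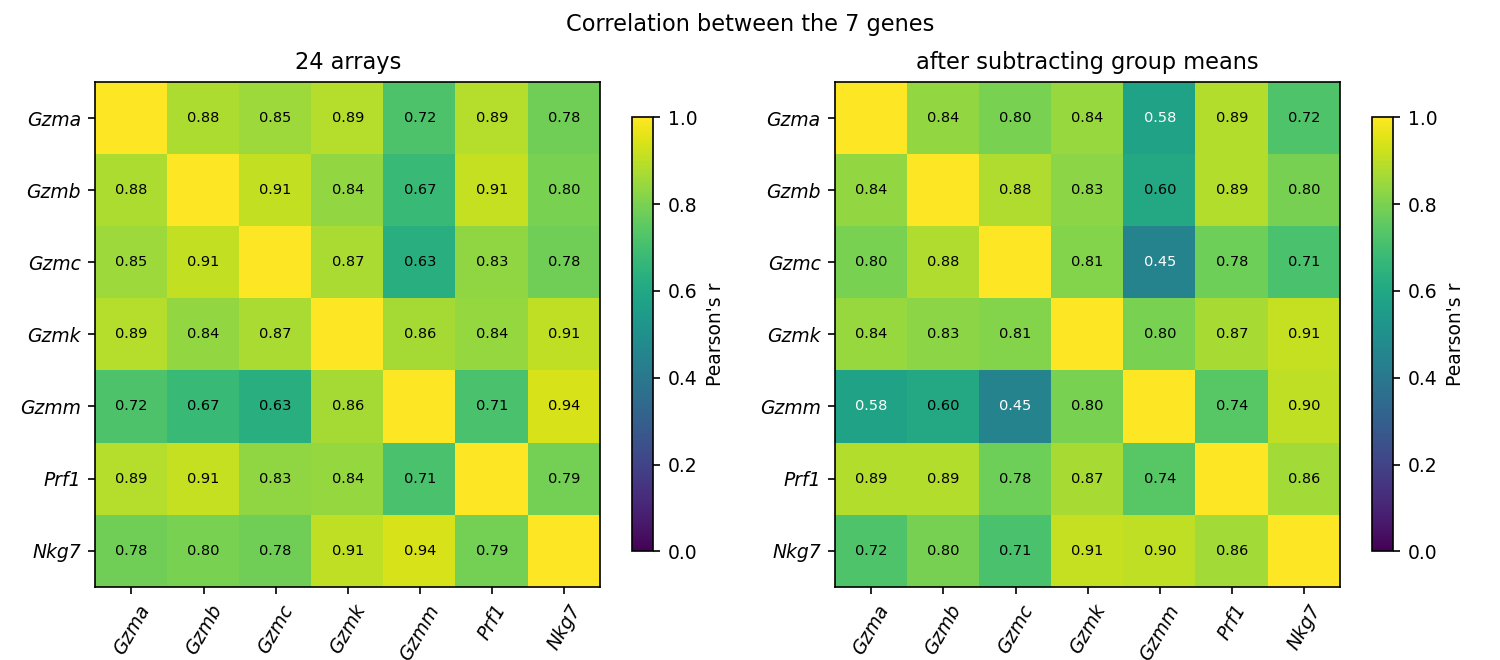
Pearson's r between each 2 of the 7 genes over 24 arrays (left) and after the group means were subtracted (right), on a colour scale from 0 to 1. Every r in both panels is above 0, and the lowest on the left, 0.630, is that of Gzmc with Gzmm.

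Other gene lists of cytotoxic cells were read in LPS-G0 against C-G0. Of 17 NK cell genes, 9 could be tested, all 9 were higher in LPS-G0 and 5 had an unadjusted p under 0.05 (background 6.81%), with a median difference of 0.63. These 5 were Klre1 (1.21 on the log2 scale), Fcgr3a (1.09), Klrb1a (0.94), Klrd1 (0.67) and Il2rb (0.57), of which Klre1, Klrb1a and Klrd1 encode lectin-like receptors and Fcgr3a a receptor for antibodies. Tyrobp, an adaptor protein gene that myeloid cells also use, differed by 0.072. Klrc1 and Ncr3 were above background on no array, and Ncr1, an activating receptor gene of NK cells, on 11 of 24. The mean log2 ratio of the 9 genes ran from -1.26 to -0.077 in C-G0 and from 0.045 to 0.34 in LPS-G0. Over the 24 arrays it had an r of 0.911 and a rho of 0.846 with the mean of the 7 granule genes, and an r of 0.838 without C-G0 replicate 1, given as a description. The part of NK cell number in the granule values was not tested.

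Death ligands and secreted cytokines, the other effector products of these cells, were higher in part. Of 6 tested, Xcl1 (0.79) and Ccl5 (0.57), both chemokine genes, had an unadjusted p under 0.05 in the higher direction, Faslg stood at 0.64 without that, and Tnf at -0.21. Ifng and Tnfsf10 were above background on no array. The list's mean had an r of 0.874 with that of the granule genes. The granule machinery list held genes that move and fuse granules, many of them used by other blood cells too, and also genes of granule content such as Srgn. None of its 16 tested genes had an unadjusted p under 0.05, and their median difference was -0.026, from Ap3b1 (-0.29) to Ctsw (0.37). The 6 tested transcription factors had a median of -0.19, with Tbx21, which encodes T-bet, at -0.32. Of 5 tested cytokine receptor genes, Il2rb alone had an unadjusted p under 0.05.

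Markers of other blood cells were read in the same comparison. Of 13 tested T cell genes, none was higher and 2 were lower with an unadjusted p under 0.05, Cd3e (-0.61) and Cd8b (-0.59), against 4.50% of all probes lower, and the list's median was -0.077. Its mean ran from -0.53 to 0.30 in C-G0 and from -0.40 to 0.023 in LPS-G0, with an r of 0.125 with the granule genes. The rho was -0.063, and the r was -0.185 without C-G0 replicate 1. Cd8a, the other chain of the CD8 co-receptor, differed by 0.11. The 5 tested neutrophil genes were all lower in mean, with a median of -0.55 and 0 under an unadjusted p of 0.05, and their mean ran from -0.13 to 0.28 in C-G0 and from -0.65 to -0.14 in LPS-G0. Medians were -0.18 for 5 B cell genes, where Ms4a1 (-0.91) had an unadjusted p under 0.05, -0.069 for 6 monocyte, 0.072 for 8 erythroid and -0.016 for 8 platelet genes. Among 3 tested basophil and mast cell genes with a median of 0.19, Mcpt9, a mast cell protease gene, stood 0.44 higher. No gene of these lists was called after correction, and the part of a shift in cell makeup was not tested.

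**Figure D5:**
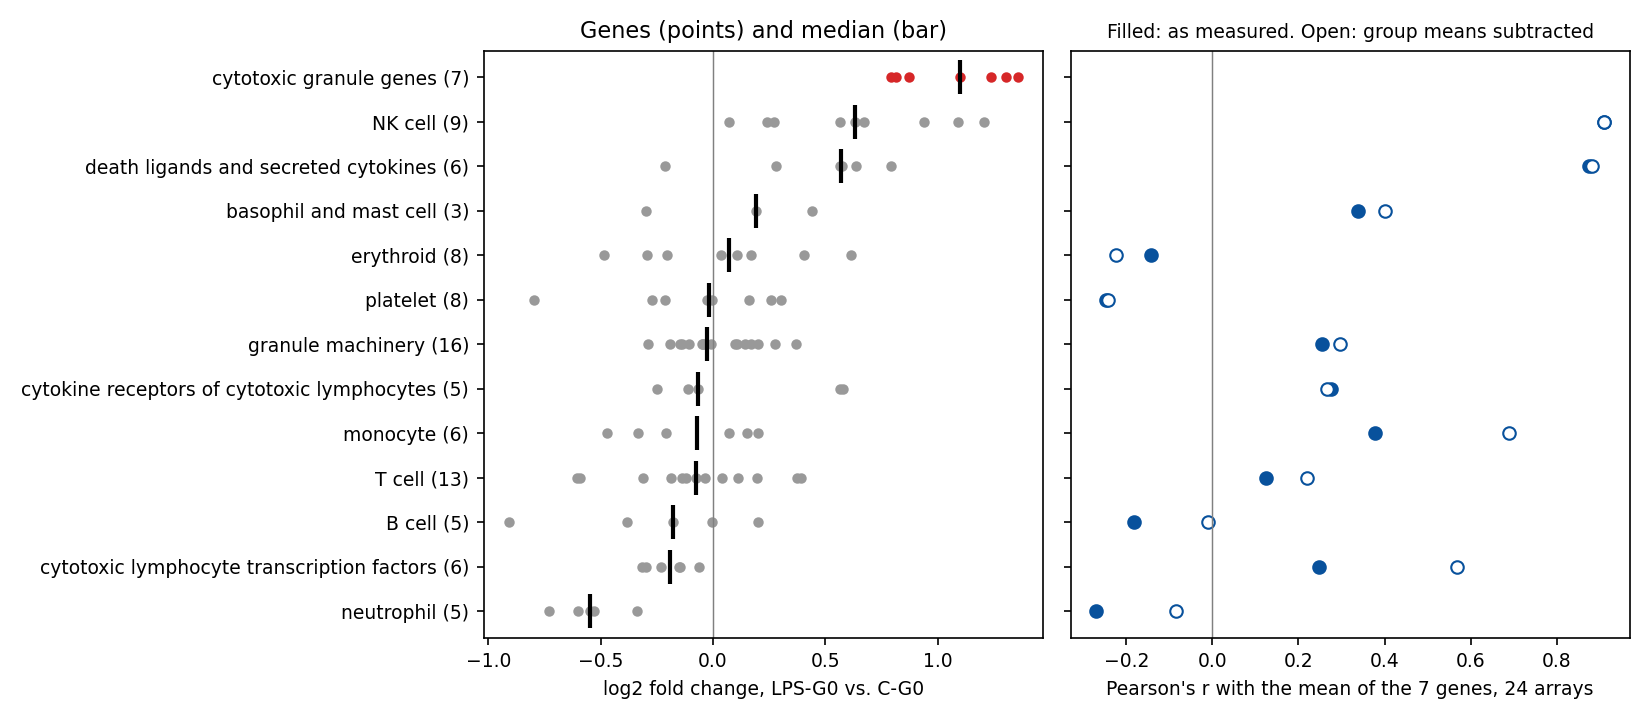
Left, log2 fold change of LPS-G0 against C-G0 (horizontal axis) of each tested gene (points) and median (bar) of the 7 granule genes and of 12 gene lists (vertical axis, number tested in parentheses); right, Pearson's r of each list's mean with the mean of the 7 genes over 24 arrays, as measured (filled) and with group means subtracted (open). The NK cell list (median 0.63, r 0.911) and the list of death ligands and cytokines (median 0.57, r 0.874) stand nearest to the granule genes.

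Among 9667 genes, each by its lead probe, 5 had an r above 0.8 with the mean of the 7 granule genes over the 24 arrays, where the median gene had an r of 0.035. They were Klrb1a (r = 0.914), RGD1562667 (0.882), Klre1 (0.833), Ccl5 (0.830) and Il2rb (0.828). Klrb1a, an NK receptor gene, had group means of -0.47 in C-G0, 0.47 in LPS-G0, 0.15 in C-G1, 0.27 in LPS-G1, -0.018 in C-G2 and -0.073 in LPS-G2. RGD1562667, annotated as similar to CMRF35-like molecule 6, a leukocyte surface receptor, had means of -0.95 in C-G0, 0.024 in LPS-G0, 0.0084 in C-G1 and 0.13 in C-G2. With group means subtracted, the r of these genes was 0.905 for Klrb1a and 0.901 for RGD1562667.

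A further 8 probes carried the name or description of a granzyme, and most were dim. Gzmf, RGD1560650 and XM_224226 were above background on no array, LOC100911163 on 1, Gzmn on 2 and Gzmbl1 on 9 of 24. Of the 2 that passed the filter, LOC102553861 is given above with Gzmb, and Gzmbl3 read 0.93, 0.15, 0.78 and 1.02 in LPS-G0 against -0.45, 0.74, 0.71 and 0.41 in C-G0. Those groups overlapped, with a difference of 0.37 ± 0.34 (SE; limma, adjusted p = 0.673). Gzmbl3 was above background on 14 of 24 arrays, with 2 of 4 in C-G0 and 3 of 4 in LPS-G0. It passed the filter through C-G2 alone. The other 2 probes named Gzmc were above background on no array.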

How the data were processed

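RNA from the blood of 24 single rats was hybridised to 24 two-color Agilent SurePrint G3 Rat arrays against a common reference, with 8 arrays on each of 3 slides. Per the file headers, the authors extracted, background-subtracted and dye-normalized (Lowess) the signals with Feature Extraction 10.10.1.1, while the submitters' processing notes name 10.7.3.1. The deposited log10 ratios (Cy5 over Cy3) were turned to log2 of Cy3 over Cy5. The authors' deposited Cy3 intensity, background-subtracted and normalized, chose the lead probes. The authors' deposited series table held those log10 ratios too, equal at all 1511424 values. The labels call the reference a pool of all rats, whereas the methods call it a pool of other rats of each group.

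Spots marked as outliers were left out, spots of a probe were averaged, and a probe entered the test if some group had it flagged well above background (Cy3) in all 4 rats, which left 10708 of 30367. One fit of 6 group means was made over 24 arrays with limma 3.58.1 (R 4.3.3; lmFit, eBayes, two-sided), and p was adjusted by Benjamini-Hochberg over all probes. A call needed an adjusted p under 0.05 and a 2-fold difference. Exact two-sided permutation tests enumerated the 70 arrangements of 4 arrays against 4, whose smallest p is 0.0286, and the correlations used 100000 permutations. Scripts were tested on simulated data. The test of the study's methods, one-way analysis of variance with Tukey's HSD, was an alternative. The named genes were every probe of the 7 genes, every other probe named or described as a granzyme, the 5 genes most like the mean of the 7, and from 12 lists the counts and the genes of highest and lowest difference. Further genes of the lists were named after their values were seen. The members and lists were chosen with earlier results of these data known. Arrays give no counts, so that 4 rats a group limit the precision.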

Additional observations from a re-analysis of the deposited data

Results flagged for a closer look

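Of 42 combinations of gene and group, 2 held a rat far from the other 3 by Dixon's ratio of its gap to the range of the group at its 95% critical value, where chance gives about 1 in 20. Gzma in C-G2 replicate 3 read -0.82, while the other C-G2 rats read 0.28, 0.28 and 0.42. Gzmk in LPS-G1 replicate 2 read -0.24, while the others read 0.44, 0.44 and 0.52. The ratios were 0.889 and 0.894. Without C-G2 replicate 3, the difference of Gzma between LPS-G2 and C-G2 was -0.28, and without LPS-G1 replicate 2, that of Gzmk between LPS-G1 and C-G1 was 0.57.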

How the results depend on the processing

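The count of granule genes called was 0 in each comparison under each alternative run. With array weights, Gzmk and Gzmm had an adjusted p of 0.0314 and 0.0424 in LPS-G0 against C-G0, each under 2-fold. The median difference within slide 2 was 0.52 for LPS-G0 against C-G0, -0.27 for LPS-G1 against C-G1, 0.30 for LPS-G2 against LPS-G0 and -0.39 for the G2 interaction. Within slide 3 it was 1.16 for LPS-G1 against C-G1, -0.25 for C-G1 against C-G0 and 0.35 for the G1 interaction, and within slide 1 it was -1.18 and -1.63 for the G1 and G2 interactions. The median r between genes was 0.728 without the 2 farthest arrays and 0.963 within slide 1.

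The number of genes at an unadjusted p under 0.05 moved as follows, and the cause was not tested. For LPS-G2 against LPS-G0 (2 genes) it was 5 with only the groups compared, 4 with array weights, 1 with array medians set to 0, with no filter and with the filter on both channels, and 0 with slide as a term, Cy3 alone and Tukey's HSD. For C-G1 against C-G0 (1 gene) it was 4 with Cy3 alone and 0 with only the groups compared, slide as a term, normexp and array weights. For C-G2 against C-G0 (6 genes) it was 3 with normexp and 0 with array weights. For the G1 interaction (1 gene) it was 0 with Cy3 alone and array weights and 3 without LPS-G0 replicates 3 and 4, and for the G2 interaction (7 genes) it was 4 with array weights. For LPS-G1 against C-G1 (0 genes) it was 2 with array weights.

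Same-numbered rats correlated in their deviations from group means at a mean of -0.046 to 0.33 over 7 pairs of groups. That mean was above the one of differently numbered rats in 5 of 7. In 28 of 56 comparisons a rat was best with its own number, more often than a random pick among 4 rats would give. Every replicate 1 lay on slide 1 and every replicate 4 on slide 3. Likeness by number and by slide can therefore not be told apart. In none of the 7 pairs of groups was every same-numbered correlation over 0.1 (lowest values -0.26 to 0.039), so the numbers were not taken as pairs. The replicate block gave a count of 7 genes for LPS-G0 against C-G0, 5 for C-G2 against C-G0, 6 for the G2 interaction and 0 for LPS-G2 against LPS-G0. With slide as a second block it gave 0 in LPS-G2 against LPS-G0 and 5 in C-G1 against C-G0, and turned the sign of Nkg7 (0.072), Gzmm (0.11) and Prf1 (0.066) in LPS-G1 against LPS-G0 and of Nkg7 (0.045) and Gzmm (0.12) in LPS-G2 against LPS-G0. Cy3 alone turned Prf1 in LPS-G1 against C-G1 (-0.030) and Gzmk (-0.028) and Gzma (-0.012) in LPS-G2 against C-G2, as array weights did Gzmk (-0.029).

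With each rat left out in turn, the genes at an unadjusted p under 0.05 numbered 0 to 2 in LPS-G1 against C-G1, 0 to 3 in LPS-G2 against LPS-G0, 0 to 7 in C-G1 against C-G0, 1 to 7 in C-G2 against C-G0, 0 to 5 in the G1 and 3 to 7 in the G2 interaction. They numbered 5 to 7 in LPS-G0 against C-G0 and 3 to 5 for LPS against saline averaged over the 3 diets. In LPS-G1 against C-G1, Gzma ran from -0.18 to 0.28, Prf1 from -0.14 to 0.17 and Gzmb from -0.21 to 0.51. In LPS-G2 against C-G2, Gzmk ran from -0.076 to 0.15, Nkg7 from -0.11 to 0.053 and Gzma from -0.28 to 0.17. In LPS-G1 against LPS-G0, Nkg7 ran from -0.23 to 0.014, Gzmm from -0.16 to 0.031 and Gzmc from -0.50 to 0.0044, and in LPS-G2 against LPS-G0, Gzmm ran from -0.18 to 0.011.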
